A study of Mus musculus with 11 samples.

Results

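Endothelial cells (ECs) line every vessel and carry much of the machinery that starts, limits and dissolves a clot. Here 9 genes of that machinery were followed in RNA from sorted liver ECs, namely *F8*, *Vwf*, *F5* and *F3* (procoagulant), *Tfpi*, *Procr* and *Pros1* (anticoagulant), and *Plat* and *Plau* (plasminogen activators). They were chosen by gene name, and all 9 were found among the 29307 genes of the count table. The study asked how the gut microbiota affects the liver sinusoidal endothelium, and compared germ-free (GF) with conventionally raised (CONV-R) mice. All animals were male C57BL/6J mice of 10 to 12 weeks from the same colonies and on the same diet. GF mice were kept in sterile isolators, whereas CONV-R mice were housed under specific pathogen-free conditions and carried a microbiota. There were 6 CONV-R mice, numbered 1 to 6, and 5 GF mice, numbered 1, 2, 4, 5 and 6, with 1 library per mouse. In both groups ECs were enriched with magnetic beads for CD146, sorted as CD31+ CD105+ CD146+ cells, and amplified from 20 ng of total RNA. GF livers gave less RNA before amplification, so RNA yield and colonization cannot be told apart in these libraries.

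Clotting begins when tissue factor (*F3*) meets plasma factor VII, and it is amplified by the cofactors VIII and V, with factor VIII travelling in plasma bound to von Willebrand factor. ECs oppose this with tissue factor pathway inhibitor and with the protein C system, in which the endothelial protein C receptor presents protein C and protein S acts as its cofactor. Fibrin is removed by plasmin, which the activators tPA (*Plat*) and uPA (*Plau*) cut from plasminogen. Liver sinusoidal ECs (LSECs) are known as the main source of circulating factor VIII, whereas von Willebrand factor is typical of larger vessels.

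The libraries held 7922855 to 14669352 counts in CONV-R and 7242717 to 16164588 in GF mice. Levels are given as CPM, in which the counts of a gene are divided by the TMM-scaled total of the library and multiplied by 1e6, and Log2FC is the log2 ratio of GF over CONV-R. A gene was called when the quasi-likelihood test of edgeR gave it an adjusted p below 0.05, with Benjamini-Hochberg correction across the 12905 genes that had enough counts. Of these genes 965 (7.48%) were called, 620 (4.80%) higher and 345 (2.67%) lower in GF mice. The LSEC markers, 11 of which were listed, summed to 38372 to 47229 CPM in CONV-R and 36624 to 52122 CPM in GF mice, and the groups overlapped. Library CONV-R 3 stood somewhat apart, with the highest value of all 11 libraries in 19.9% of tested genes. Some markers of other cells were called higher in GF libraries, namely 7 of 10 Kupffer cell markers (liver macrophages; summed 86.0 to 222 CPM in CONV-R and 197 to 931 CPM in GF, with *C1qa* at 0 in CONV-R 5), 4 of 13 tested markers of large-vessel endothelium (summed 2242 to 2814 CPM against 2629 to 4027 CPM, with *Sele* at 0 in CONV-R 3 and GF 4) and 1 of 3 tested markers of monocytes or neutrophils. Lymphocyte markers went the other way, with 3 of 3 tested below 0 (median Log2FC −1.33, edgeR adjusted p of 0.0903 to 0.328). The genes of the sorting antigens, *Pecam1* (Log2FC 0.46, edgeR adjusted p = 0.112), *Eng* (0.26, 0.336) and *Mcam* (0.37, 0.0764), were not called. Bulk RNA cannot tell fewer cells of a type from less RNA per cell.

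The 9 genes spanned a wide range of expression. To compare genes, CPM were divided by the length of each gene's merged exons in kb. *F8* was the most abundant, with a mean of 544 CPM per kb (range 436 to 644 over the 11 mice), which placed it 21st among the tested genes. *Pros1* followed with 180 CPM per kb (145 to 223) and *Tfpi* with 161 CPM per kb (103 to 190). The order of this pair was not the same in both groups, since *Pros1* exceeded *Tfpi* in 5 of 5 GF libraries but in 2 of 6 CONV-R libraries, and that difference in order was not tested. *Plau* (10.3 CPM per kb) and *Vwf* (9.71 CPM per kb) had overlapping ranges, with *Plau* higher in 4 of 6 CONV-R and 2 of 5 GF libraries. *Procr* reached 2.27 CPM per kb and was below *Vwf* in all 11 libraries, although the ranges touched. The 3 least abundant genes were *Plat* (0.690 CPM per kb), *F5* (0.380 CPM per kb) and *F3* (0.179 CPM per kb). *Plat* lay below *Procr* in all 11 libraries without overlap, whereas *Plat* exceeded *F5*, and *F5* exceeded *F3*, in 10 of 11 libraries each with overlapping ranges.

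**Figure D1:**
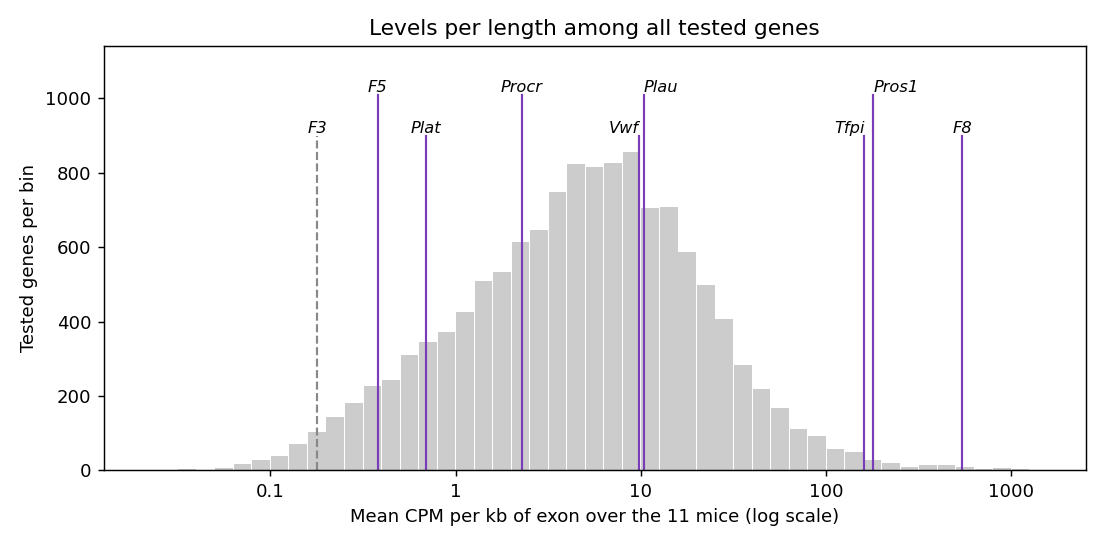
Mean level per kb of exon over the 11 mice (x axis, log scale) of the 9 genes (vertical lines) on the distribution of all 12905 tested genes (grey bars, y axis in genes per bin). The dashed line is *F3*, which had too few counts for the filter; *F8*, *Pros1* and *Tfpi* stand at the upper end, at 544, 180 and 161 CPM per kb, and *Plat*, at 0.690, near the lower end.

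Between the groups, *Plat* was the only one of the 8 tested genes to be called (12.5%, beside 7.48% of all tested genes), and it was higher in GF mice. None of the other 7 tested genes passed under edgeR, DESeq2 or limma voom, although 2 of them, *F5* and *Tfpi*, had an unadjusted edgeR p under 0.05, as did 23.0% of all tested genes. *F3* had too few counts for the filter of edgeR and limma voom. Of the 8 Log2FC values 6 were above 0 and their median was 0.13, against −0.01 for all tested genes. The plots by mouse show that the groups were separated for *Plat* alone.

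**Figure D2:**
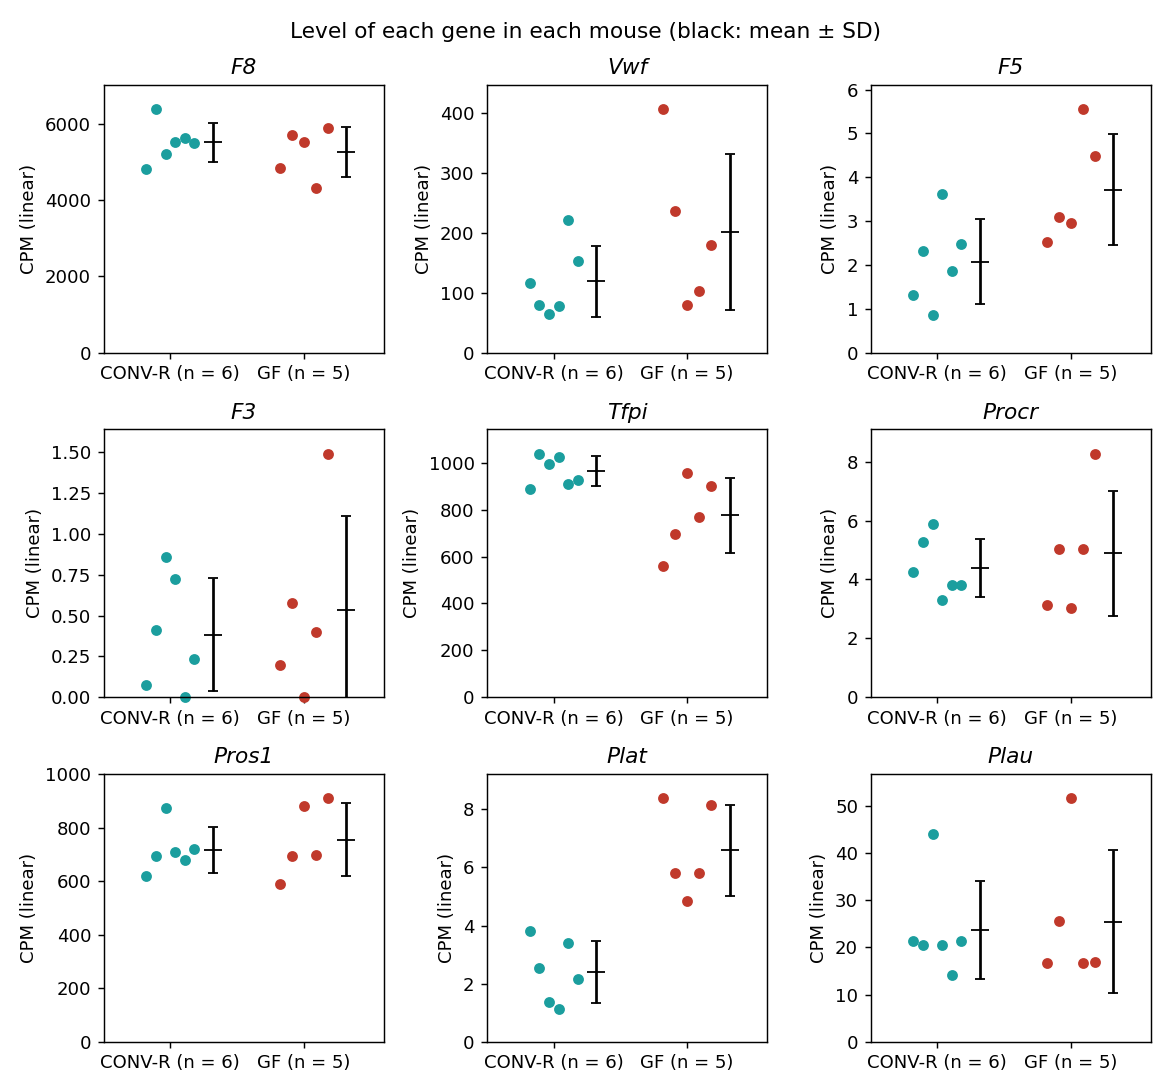
Level of each of the 9 genes in each mouse (CPM, linear axes from 0), with CONV-R in turquoise (n = 6) and GF in red (n = 5). Black marks give the mean and SD, cut at 0 for *F3*; the 2 groups do not overlap for *Plat* and overlap for the other 8 genes.

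Among the procoagulant genes, factor VIII is the cofactor whose lack causes haemophilia A. *F8* (chromosome X, 75172715 to 75382615, minus strand, GRCm38) took 0.451% to 0.636% of all counts. In CONV-R mice the lowest, median and highest values were 4821, 5507 and 6374 CPM, and GF mice 1, 2, 4, 5 and 6 had 4834, 5692, 5508, 4318 and 5877 CPM. Thus, GF mouse 5 alone lay below the CONV-R range, and no GF mouse lay above it. The means were 5504 ± 517 CPM (SD, n = 6) and 5246 ± 651 CPM (SD, n = 5), with a Log2FC of −0.07 (SE 0.11, 95% interval −0.30 to 0.16, edgeR adjusted p = 0.753). This was the smallest SE among the 8 tested genes.

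*Vwf*, on chromosome 6 (125546774 to 125686679, plus strand), encodes the adhesive multimer that carries factor VIII and tethers platelets. Its level in CONV-R mice had a minimum of 65.1, a median of 98.1 and a maximum of 221 CPM, and GF mice 1, 2, 4, 5 and 6 showed 405, 236, 79.8, 103 and 179 CPM. Only GF mice 1 and 2 exceeded the CONV-R range, and the other 3 GF mice lay inside it. The Log2FC was 0.76 (SE 0.36, 95% interval −0.01 to 1.53, edgeR adjusted p = 0.223). GF mouse 1 carried much of this difference, since without it the Log2FC was 0.33 (edgeR adjusted p = 0.627). In that same library 6 of the 13 tested large-vessel markers (46.2%) reached their highest value, whereas it held the highest value for 12.2% of all tested genes. Its large-vessel markers summed to 4027 CPM, the highest of the 11 libraries. *Bgn* and *Ly6a* weighed most in this sum, with means of 1169 and 283 CPM in CONV-R and 1239 and 552 CPM in GF mice. Platelets also carry von Willebrand factor and factor V, and the 9 listed platelet markers summed to 20.3 to 29.5 CPM in CONV-R and 16.8 to 21.8 CPM in GF mice, with *Treml1* at 0 in every library but GF 2, which had 1 count. *Gp1ba* (means of 12.5 CPM in CONV-R and 9.14 CPM in GF mice) and *Ppbp* (6.14 and 6.21 CPM) weighed most in the platelet sum. *Gp1bb* (0.0388 and 0.0386 CPM) and *Gp9* (0.0794 and 0.163 CPM) hardly entered it. The part of either marker list in the *Vwf* values was not tested.

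Factor V is the cofactor of factor X within prothrombinase, and *F5* (chromosome 1, 164151838 to 164220277, plus strand) was weakly expressed, with 158 counts over the 6 CONV-R and 177 over the 5 GF libraries. CONV-R mice ranged from 0.859 to 3.62 CPM around a median of 2.09 CPM, and GF mice 1, 2, 4, 5 and 6 had 2.53, 3.09, 2.95, 5.55 and 4.48 CPM. GF mice 5 and 6 were above every CONV-R mouse and the other 3 were within the CONV-R range. The Log2FC was 0.81 (SE 0.38, 95% interval 0.01 to 1.62), and the edgeR adjusted p of 0.214 did not pass. Of its exon bases 3.53% are shared with the antisense gene *Gm16548*, and without a stated strand setting of the counting these reads cannot be assigned to one or the other.

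Tissue factor is largely kept out of contact with blood by the quiescent vessel wall. *F3* (chromosome 3, 121723537 to 121735048, plus strand) was near the limit of these libraries, with 1, 6, 7, 9, 0 and 3 counts in CONV-R mice 1 to 6 and 3, 6, 0, 3 and 11 counts in the GF mice. A count of 0 still allows up to 0.242 CPM in CONV-R mouse 5 and up to 0.286 CPM in GF mouse 4, counting error only. No difference was detectable at this depth, with a Log2FC of 0.42 in edgeR without a filter (adjusted p = 0.865) and 0.46 in DESeq2 (adjusted p = 0.849).

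Tissue factor pathway inhibitor (*Tfpi*, chromosome 2, 84432855 to 84476775, minus strand) blocks the complex of tissue factor and factor VII together with factor X. Its values in CONV-R mice were tight, from 888 to 1039 CPM with a median of 963 CPM, and those in GF mice 1, 2, 4, 5 and 6 were 560, 696, 957, 768 and 900 CPM. GF mice 1, 2 and 5 lay below every CONV-R mouse, while GF mice 4 and 6 lay inside the CONV-R range. The means were 965 ± 63.4 CPM (SD, n = 6) and 776 ± 159 CPM (SD, n = 5). With a Log2FC of −0.31 (SE 0.12, 95% interval −0.58 to −0.05) the edgeR adjusted p was 0.139, so *Tfpi* was not called. With single mice left out, the edgeR adjusted p ran from 0.0647 to 0.288 and the Log2FC from −0.40 to −0.22.

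The receptor that concentrates protein C on ECs is encoded by *Procr* on chromosome 2 (155751117 to 155755471, plus strand). CONV-R mice had 3.29 to 5.89 CPM (median 4.03 CPM) and GF mice 1, 2, 4, 5 and 6 had 3.12, 5.02, 3.05, 5.02 and 8.27 CPM. The groups overlapped broadly, with GF mice 1 and 4 just below the CONV-R range and GF mouse 6 above it. The Log2FC was 0.15 (SE 0.30, 95% interval −0.49 to 0.79, edgeR adjusted p = 0.822), and it was −0.12 without GF mouse 6.

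Protein S is also a ligand of receptors that clear dying cells, besides serving protein C and TFPI. *Pros1* (chromosome 16, 62854307 to 62929346, plus strand) ranged from 618 to 875 CPM around a median of 702 CPM in CONV-R animals, and at 592, 695, 883, 697 and 911 CPM in GF mice 1, 2, 4, 5 and 6. GF mouse 1 was just below and GF mice 4 and 6 just above the CONV-R range. The Log2FC was 0.08 (SE 0.12, 95% interval −0.19 to 0.34, edgeR adjusted p = 0.768).

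tPA, encoded by *Plat* (chromosome 8, 22757727 to 22782844, plus strand), is the activator that works on fibrin and is stored and released by ECs. CONV-R mice 1 to 6 had 3.80, 2.53, 1.35, 1.12, 3.39 and 2.17 CPM, and GF mice 1, 2, 4, 5 and 6 had 8.38, 5.80, 4.86, 5.82 and 8.14 CPM. The groups did not overlap, since the lowest GF value (mouse 4) was above the highest CONV-R value (mouse 1). Such a separation was seen in 5.59% of all tested genes, and with GF higher in 3.22%. The means were 2.39 ± 1.07 CPM (SD, n = 6) and 6.60 ± 1.57 CPM (SD, n = 5). The fitted ratio was 2.73-fold, with a Log2FC of 1.45 (SE 0.33, 95% interval 0.75 to 2.15, edgeR adjusted p = 0.0128). These values rest on few reads, 181 counts over the CONV-R and 344 over the GF libraries. *Plat* was called in each of the 11 fits with 1 mouse left out, with an edgeR adjusted p of 0.00881 to 0.0388, and also by DESeq2 (adjusted p = 0.000468) and limma voom (adjusted p = 0.00815).

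Markers of other cell types also differed between the groups, and their part in the *Plat* difference was not tested. All 10 Kupffer cell markers had a Log2FC above 0 and 7 were called, and the group ranges of their sum overlapped (two-sided exact permutation test on log2 sums, p = 0.0173, adjusted p = 0.0563 over 8 marker lists). Large-vessel markers were mixed, with 9 of 13 above 0, of which 4 were called (*Cd34*, *Gja4*, *Vcam1* and *Ly6a*), and 4 below 0 and not called (*Rspo3* −0.82, *Selp* −0.66, *Wnt9b* −0.43 and *Sox17* −0.32). Their sum also overlapped (two-sided exact permutation test, p = 0.0216, adjusted p = 0.0563), with p = 0.0571 without GF mouse 1. The largest part of that sum was *Bgn*, which was not called (Log2FC 0.08, edgeR adjusted p = 0.733). The 6 monocyte or neutrophil markers did not share a direction. *Lyz2* made up most of their sum (18.1 to 57.9 CPM in CONV-R and 42.9 to 225 CPM in GF mice) and was called higher (Log2FC 1.41, edgeR adjusted p = 0.0236), whereas *Ccr2* had a Log2FC of −0.87 without being called, and *S100a8* (means of 0.463 and 0.0839 CPM in CONV-R and GF mice) and *S100a9* (0.996 and 0.201 CPM) had too few counts for the filter. Lymphocyte markers summed to less in GF mice (2.61 to 5.62 CPM, against 4.82 to 12.5 CPM in CONV-R), a log2 difference of −1.06 (two-sided exact permutation test, p = 0.00866, adjusted p = 0.0563 over the 8 lists).

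**Figure D3:**
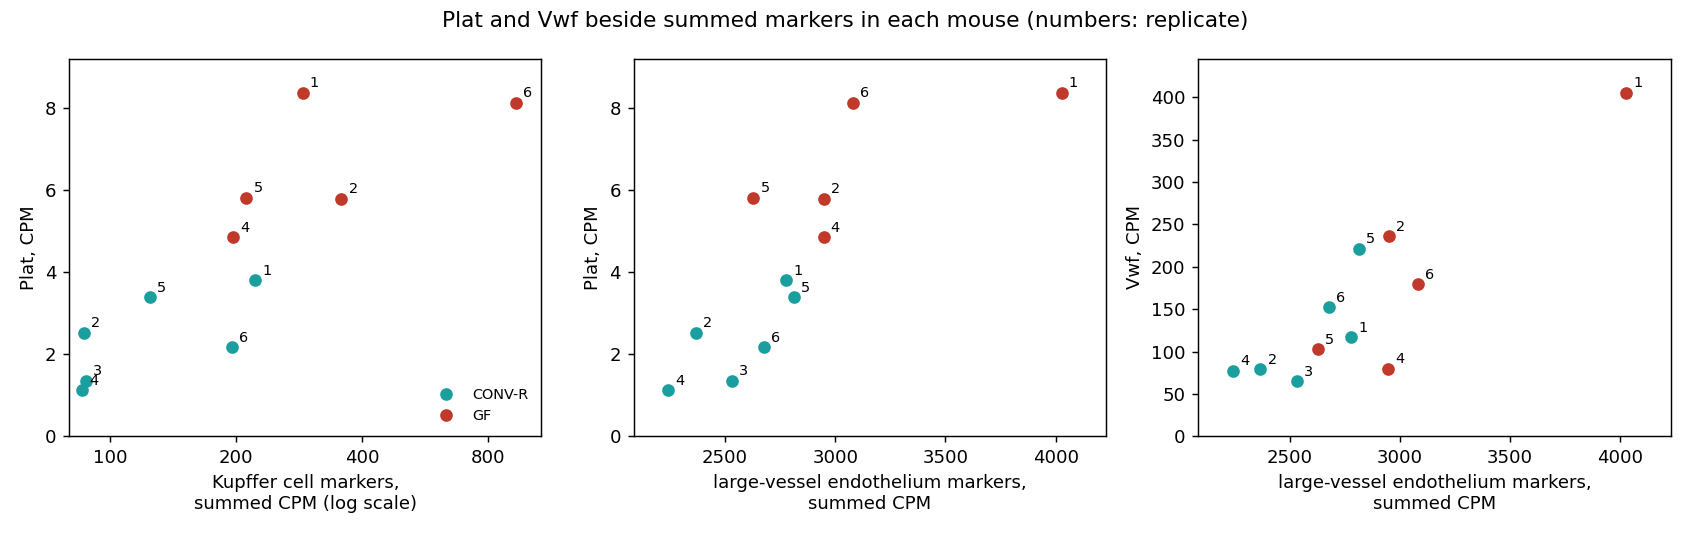
*Plat* beside the summed Kupffer cell markers (left, x axis in CPM, log scale) and beside the summed large-vessel endothelium markers (middle, CPM), and *Vwf* beside the latter (right), with 1 point per mouse, numbered, in turquoise for CONV-R and red for GF. The *Plat* values of the groups do not overlap, the marker sums do, and GF mouse 1 had the highest *Vwf* and large-vessel values.

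The 2 tested genes whose pattern over the 11 libraries was closest to that of *Plat* were *4930554G24Rik* and *Car7*. Their centred log2 CPM differed from those of *Plat* by a root mean square of 0.23 each, where *Plat* itself had an SD of 0.92 over the libraries. Their Log2FC values were 1.24 and 1.47 (edgeR adjusted p = 0.0494 and 0.0302), which follows from their choice by likeness to a called gene.

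uPA, the activator bound by a receptor on the cell surface, is encoded by *Plau* (chromosome 14, 20836660 to 20843385, plus strand). CONV-R mice ranged from 14.1 to 44.1 CPM with a median of 20.9 CPM, and GF mice 1, 2, 4, 5 and 6 had 16.7, 25.6, 51.6, 16.7 and 16.8 CPM. In each group 1 library stood above the rest, CONV-R mouse 3 at 44.1 CPM and GF mouse 4 at 51.6 CPM, while the remaining 9 lay between 14.1 and 25.6 CPM. The Log2FC was 0.12 (SE 0.31, 95% interval −0.54 to 0.78, edgeR adjusted p = 0.870). It became −0.31 without GF mouse 4.

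To place the 9 genes within their pathway, 52 further genes of coagulation, fibrinolysis and factor handling were counted. Of these 51 were listed and 27 had enough counts, and 1 of the 27 (3.70%, beside 7.48% of all tested genes) was called. Their median Log2FC was −0.08, with 12 of 27 above 0. None of the 4 tested clotting factors and fibrinogen chains were called by edgeR, DESeq2 or limma voom, and none had an unadjusted edgeR p under 0.05. The 6 tested anticoagulants and the 3 tested receptors gave 0 calls with each tool, with 1 unadjusted edgeR p under 0.05 in each list (*Entpd1* and *F2rl2*). Of those receptors, *F2r* and *F2rl2* belong to the thrombin receptor family, whereas *Tek* is a receptor of angiopoietins. Of the 5 tested genes of the plasminogen system edgeR called 0 and DESeq2 and limma voom 1 each, while 4 had an unadjusted edgeR p under 0.05. These 4 did not share a direction, with a Log2FC of 1.55 for *Lrp1*, 1.09 for *Plaur* and 0.41 for *Anxa2*, but −0.61 for *Plgrkt*. *Lrp1* reached 94.0 CPM in GF mouse 6, against a GF median of 29.4 CPM. Of all genes tested by each criterion, 9.83% were called by DESeq2, 7.50% by limma voom, and 23.0% had an unadjusted edgeR p under 0.05. *Entpd1*, *F2rl2*, *Lrp1*, *Plgrkt* and *Tek* were named after their values were seen.

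**Figure D4:**
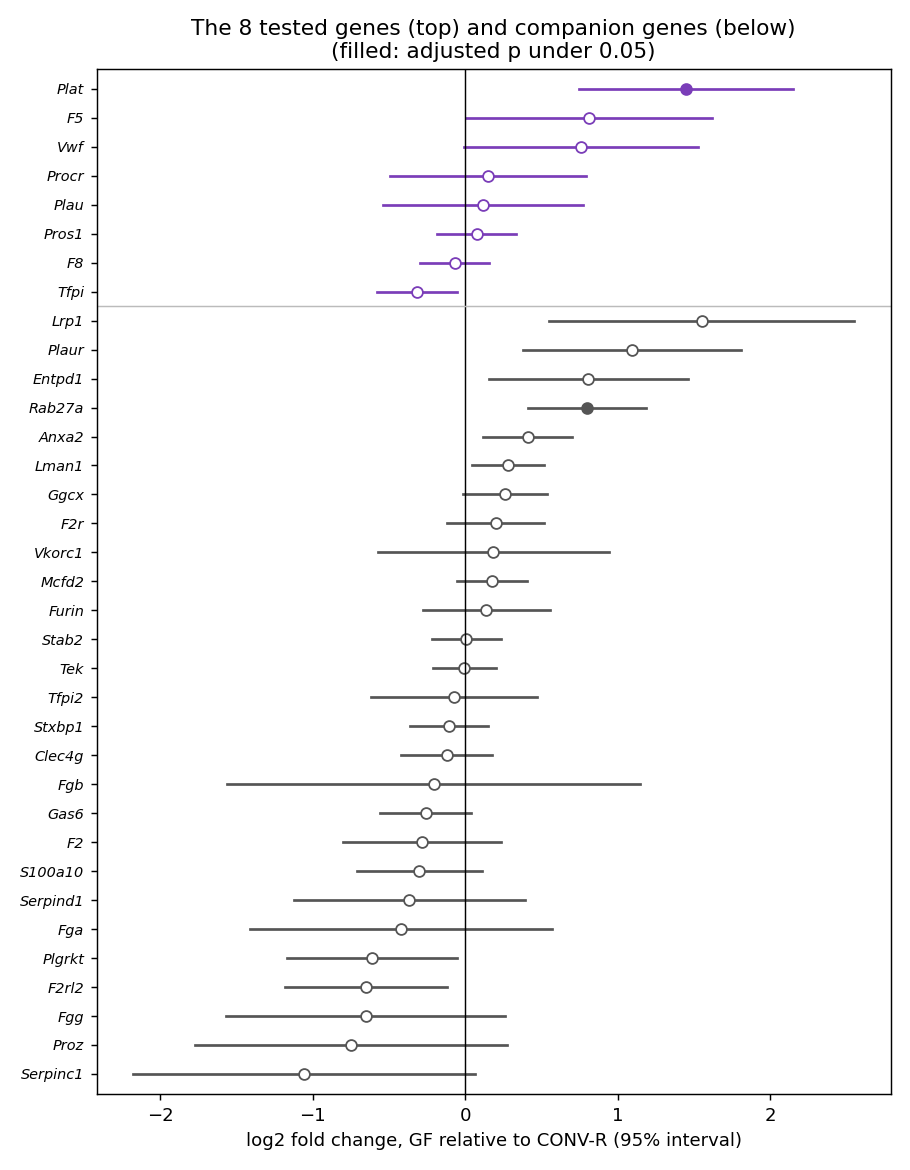
Log2FC of GF over CONV-R with 95% intervals for the 8 tested genes (top) and the 27 companion genes (below), x axis in log2 units with a line at 0; filled points passed the adjusted p threshold of 0.05. *Plat* (1.45) and *Rab27a* (0.80) were called, both higher in GF mice.

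The called companion belonged to the 9 tested genes of factor VIII and von Willebrand factor handling. *Rab27a*, which encodes a small GTPase of secretory organelles such as the Weibel-Palade bodies that store von Willebrand factor, was at 64.5 to 133 CPM in CONV-R and 120 to 218 CPM in GF mice. Its group ranges overlapped, and it rose by 0.80 (SE 0.18, edgeR adjusted p = 0.0126). The cargo receptor pair that carries factors V and VIII out of the endoplasmic reticulum, *Lman1* (Log2FC 0.28, edgeR adjusted p = 0.139) and *Mcfd2* (0.18, edgeR adjusted p = 0.347), was not called.

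Around the plasminogen activators, *Plaur*, the uPA receptor, came close to the threshold. It was at 3.55 ± 1.71 CPM (SD, n = 6) in CONV-R and 7.54 ± 2.19 CPM (SD, n = 5) in GF mice, with a Log2FC of 1.09 and an edgeR adjusted p of 0.0586. DESeq2 (adjusted p = 0.0207) and limma voom (adjusted p = 0.0349) did call it, and so did edgeR without CONV-R mouse 1 (adjusted p = 0.0278) or 3 (adjusted p = 0.0491). Macrophages and neutrophils also express this receptor, and the part of their markers, given above, was not tested. The heterotetramer that docks tPA and plasminogen on ECs is built from *Anxa2* (Log2FC 0.41, edgeR adjusted p = 0.0834) and *S100a10* (−0.30, edgeR adjusted p = 0.381), neither of which was called. *Serpine2* (2 and 7 counts) and *Plg*, plasminogen itself (33 and 39 counts), had too few counts for the filter.

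Of the anticoagulants, *Gas6*, a relative of protein S, had a Log2FC of −0.26 (edgeR adjusted p = 0.291). Antithrombin, *Serpinc1*, had −1.06 (edgeR adjusted p = 0.246), and 34.4% of its exon bases are shared with the antisense gene *Zbtb37*. Thrombomodulin (*Thbd*) was not analysed here. Prothrombin (*F2*, Log2FC −0.28, edgeR adjusted p = 0.532) and the thrombin receptor *F2r* (0.20, edgeR adjusted p = 0.462) did not pass. *Proc* (12 and 16 counts in the CONV-R and GF libraries), *Adamts13* (3 and 5), *F7* (12 and 9) and *F10* (12 and 19) were below the filter. Hepatocytes make most plasma factors, and their 12 markers had sums of 29.6 to 69.8 CPM in CONV-R and 39.1 to 88.0 CPM in GF mice. *Alb* alone had means of 28.0 and 32.7 CPM, above the highest values of *F2* (6.60 CPM) and *Serpinc1* (3.72 CPM). The part of hepatocyte RNA in the values of these factors was not tested.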

How the data were processed

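Liver EC RNA from 6 CONV-R and 5 GF mice was read as single-end reads of 50 bases. The authors trimmed reads with Trim Galore, aligned them to GRCm38 with STAR and counted them on genes with featureCounts, and deposited raw counts, used here as whole numbers without normalization. The annotation release and strand setting are not given in the sources used here. The authors left out 1 further GF library with few mapped reads, and their log2-scale normalized table was not used here. No count column lacked a listed sample (0).

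Genes were filtered with filterByExpr and scaled by TMM, then tested with edgeR 4.0.16 (quasi-likelihood, Benjamini-Hochberg adjustment, threshold 0.05) in R 4.3.3. DESeq2 1.42.0 and limma 3.58.1 (voom) were alternatives, with DESeq2 size factors, no filter, at least 10 counts in every library, a replicate block and each mouse left out. Single values per mouse were compared by two-sided exact permutation over 462 splits, whose smallest p is 0.00216. Log2 CPM for likeness used a prior count of 2. Positions and exon lengths came from GENCODE M21. Scripts were tested on simulated data. Plots used matplotlib 3.10.9 and Python 3.11.15. Libraries of separate mice were taken as replicates.

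All members and lists were chosen with earlier results of these data known. Named genes were the 9, called companions, a fixed set of companions, and the 2 genes most like each called member. Of the companions, 2 are not reported here and were left out of the counts.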

Additional observations from a re-analysis of the deposited data

Results flagged for a closer look

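Within groups of mice, 4 of 36 sets of values had 1 library apart from its group; chance gives about 1 in 20. For *Plau*, CONV-R mouse 3 had 44.1 CPM (nearest other CONV-R mouse 21.4 CPM), and GF mouse 4 had 51.6 CPM (nearest 25.6 CPM). *F2r* was 1683 CPM in CONV-R mouse 3 (nearest 1149 CPM), and *S100a10* was 75.3 CPM in GF mouse 4 (nearest 43.9 CPM). These 2 libraries were the highest 2 of all 11 for 576 of 12905 tested genes (4.46%), among them *Plau*, *F2r*, *Vkorc1*, *Clec4g*, *Fcgr2b* and *Mrc1*, named after their values were seen.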

How the results depend on the processing

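*Plat* was called, and it was the only one of the 9 genes to be called, under DESeq2, limma voom, DESeq2 size factors, both filters, the replicate block and each mouse left out, with a Log2FC of 1.40 to 1.52 under the first 6 and 1.30 to 1.63 with mice left out. The labels do not say whether mice of the same number were paired. Deviations of same-numbered libraries correlated with r = 0.20, 0.05, −0.01, 0.02 and 0.09, and 1 of 5 correlated best with its own number. So few pairs cannot decide the question, and pairing remains unknown. With the replicate block 3 companions were called (*Plat* 1.40, edgeR adjusted p = 0.0139). The companion count, 1 as reported, was 2 under DESeq2 and under limma voom, 5 without a filter, and 1 to 4 with mice left out (4 without CONV-R mouse 1 or GF mouse 5, 3 without GF mouse 4, 2 without CONV-R mouse 3), and *Rab27a* was called in each of these. DESeq2 called 1527 of all genes, and leaving out mice gave 622 to 1260 (625 without CONV-R mouse 4, 622 without GF mouse 6). *Plaur* passed under DESeq2, limma voom, no filter and the block, and without CONV-R mouse 1 or 3. *Anxa2* passed without CONV-R mouse 1 or GF mouse 5, and *Lman1* without GF mouse 5. Log2FC turned negative for *Plau* (−0.31 without GF mouse 4, −0.0032 without CONV-R mouse 5), *Procr* (−0.12) and *Pros1* (−0.00015), the last 2 without GF mouse 6. With mice left out, *Plau* ran from −0.31 to 0.38, *Procr* from −0.12 to 0.28 and *Pros1* from −0.00015 to 0.15. In the same fits *S100a10* ran from −0.55 to −0.20 (edgeR adjusted p of 0.0506 to 0.597). *F2r* ran from 0.12 to 0.34 (edgeR adjusted p of 0.0943 to 0.727) and under the other settings from 0.19 to 0.33. Neither of these 2 genes was called in any of them. The LSEC marker difference of 0.05 (log2 of summed CPM) was −0.012 without TMM and −0.0055 to 0.12 with mice left out. With mice left out, large-vessel markers ran from 0.18 (p = 0.0571 without GF mouse 1, exact permutation) to 0.33, platelet markers from −0.26 to −0.16 and monocyte or neutrophil markers from 0.81 to 1.41, with unadjusted exact permutation p-values of 0.0498 (platelet) and 0.0281 (monocyte or neutrophil) that rose above 0.05 in 8 and 6 of 11 cases. The lymphocyte difference ran from −1.22 to −0.91, with an unadjusted p of 0.00794 to 0.0238. None of the 8 lists passed after adjustment over the lists (platelet 0.0797, monocyte or neutrophil and lymphocyte 0.0563 each). The cause was not tested. *F5* and *Serpinc1* had no value with at least 10 counts required in every library. Low counts limit *F3*, *F5*, *Plat* and *Procr*.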
